A study of Drosophila melanogaster with 6 samples.

Results

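Peritrophic matrix proteins and mucins were followed in the RNA of sorted midgut progenitor cells. The 30 genes are those of the deposited list of 15603 whose symbols start with Peritrophin, with Muc or Mur followed by a digit, or with obst-. There were 3 Peritrophin, 13 Muc, 6 Mur and 8 obst genes. Intestinal stem cells (ISCs) and enteroblasts (EBs), their undifferentiated daughters, were purified as GFP-positive cells under the escargot promoter from intact guts of 7-day-old female flies. About 100 guts were pooled for each sample, and each of the 6 conditions was sequenced as 1 library, and differences between libraries therefore have no replicate check and no p-value. All flies carried the temperature-sensitive driver esgGal4ts, which acts in ISCs and EBs, and were held at 29 °C to switch it on.

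The control w1118 (driver alone), HttQ138 (an expanded, aggregating form of human huntingtin), CncCRNAi (RNAi against the Nrf2 homologue CncC) and CncCRNAi+HttQ138 were kept at 29 °C for 2 days. The control attP2 (driver with the attP2 landing-site chromosome and no RNAi construct) and Rpn3RNAi (RNAi against a lid subunit of the proteasome, in the attP2 background) were kept there for 4 days. Levels are given as FPKM, the fragments of a gene relative to its length in kilobases and to the mapped fragments of the library. As a check of the targeted genes, Rpn3 measured 63.2 FPKM with Rpn3RNAi beside 77.1 in attP2. The values of cnc were 63.8 FPKM in w1118 and 60.7 with HttQ138, beside 64.4 and 75.6 in the libraries labelled CncCRNAi and CncCRNAi+HttQ138, so that its RNA was no lower where the label names its knockdown. These values are for the whole gene and do not resolve single transcripts, and protein was not measured in these libraries. esg lay between 287 and 346 FPKM in the 6 libraries. Libraries came from 16611 (HttQ138) to 62921 (attP2) sorted cells and held an estimated 2770000 to 3630000 fragments.

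The peritrophic matrix is a sheet of chitin fibres and glycoproteins that lines the midgut lumen and separates food and microbes from the epithelium. Peritrophins bind the chitin through cysteine-rich domains, while mucins are long proteins whose serine and threonine repeats carry O-linked sugars and hold water. They are secreted by differentiated cells of the cardia and the midgut. The obst genes encode the obstructor family of chitin-binding proteins, best known from the cuticle and the tracheal tube.

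Of the 30 genes, 11 exceeded 1 FPKM in at least 1 library. These were 2 Peritrophin, 3 Mur, 5 Muc and 1 obst gene. Another 14 were detected at up to 1 FPKM, and Muc26B, obst-B, obst-I, obst-G and Mur11Da were listed at 0 throughout. Muc30E, at most 1.11 FPKM, and obst-E, at most 1.27, lay just above the limit of 1 FPKM, and Muc4B, at most 0.987, and Peritrophin-A, at most 0.909, just below it. Together the 30 genes took 0.00764% of summed FPKM in w1118, 0.0226% in HttQ138, 0.00567% in the library labelled CncCRNAi, 0.00687% in the library labelled CncCRNAi+HttQ138, 0.00883% in attP2 and 0.0666% in Rpn3RNAi. They were thus a small part of the RNA everywhere, with the highest shares in the libraries HttQ138 and Rpn3RNAi.

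Mur2B, a mucin-related gene, was the member found at a like level in every library. It measured 33.8 FPKM in w1118 and 24.1 with HttQ138, 23.2 and 29.2 in the libraries labelled CncCRNAi and CncCRNAi+HttQ138, and 25.4 in attP2 beside 22.3 with Rpn3RNAi. It was the most abundant member in w1118, in attP2 and in both libraries labelled CncCRNAi, and its highest value was 1.52 times its lowest. HttQ138 lay at 0.712 times w1118 (95% counting interval 0.622 to 0.814). Rpn3RNAi lay at 0.877 times attP2 (0.755 to 1.02), and the library labelled CncCRNAi+HttQ138 at 1.26 times that labelled CncCRNAi (1.10 to 1.44). These intervals, here and below, are exact binomial intervals on estimated fragments and cover counting error only.

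**Figure D1:**
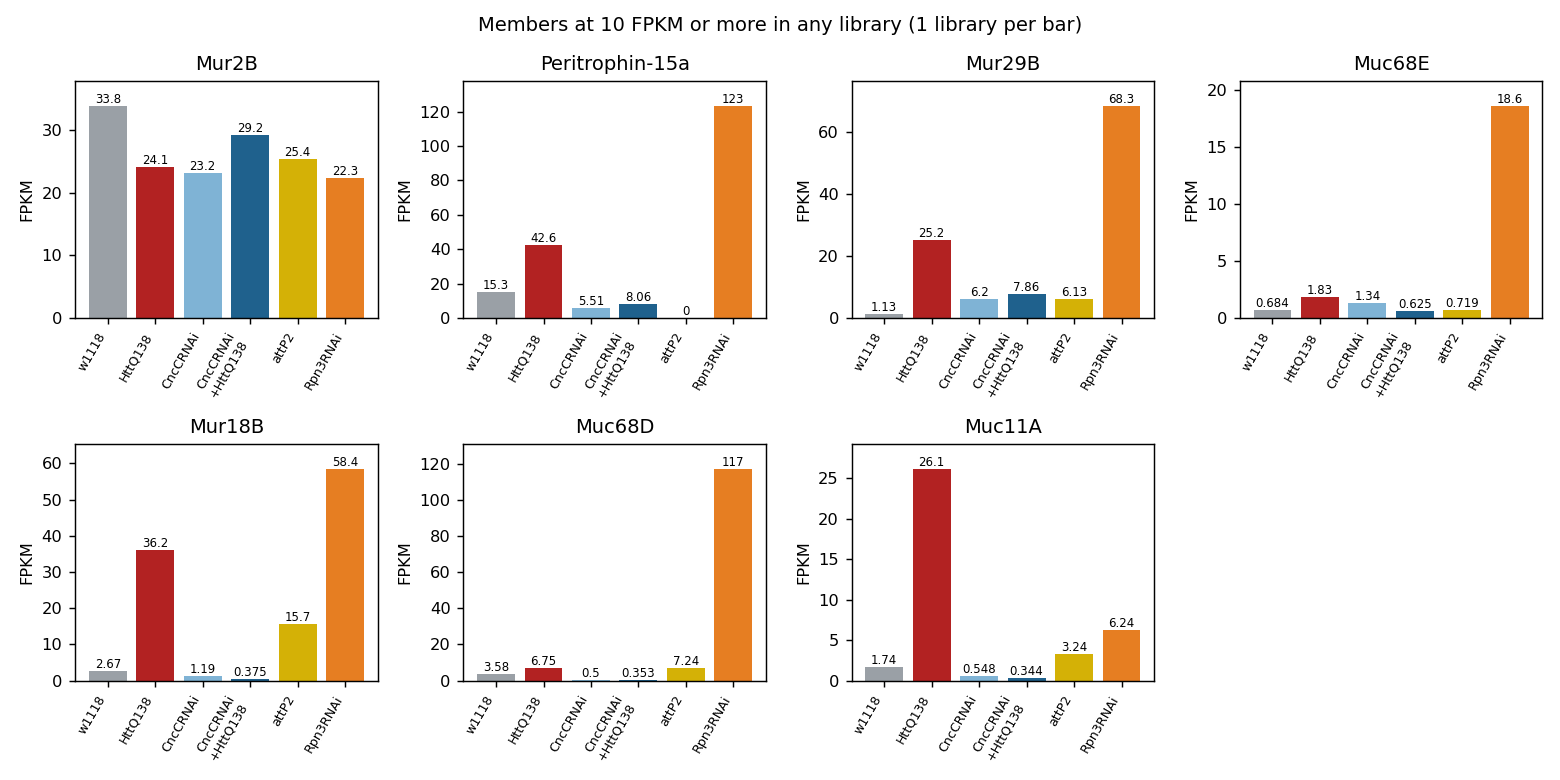
FPKM of the 7 members that reached 10 FPKM in any library, with 1 bar for each library and a separate linear axis from 0 for each gene. Mur2B lies between 22.3 and 33.8 FPKM in all 6 libraries, 5 of the other members are highest in Rpn3RNAi, and Muc11A is highest in HttQ138 at 26.1 FPKM.

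Peritrophin-15a (FBgn0040959), named after a peritrophin of the blowfly peritrophic matrix, was the most abundant member in HttQ138 and in Rpn3RNAi. It measured 15.3 FPKM in w1118 and 42.6 with HttQ138, 5.51 and 8.06 in the libraries labelled CncCRNAi and CncCRNAi+HttQ138, and 123 with Rpn3RNAi, and was listed at 0 in attP2. Levels thus ran from a listed 0 in one control to the highest of any member with Rpn3RNAi. Among all genes its level lay at the 73.4th percentile in w1118, the 88.6th in HttQ138 and the 95.9th in Rpn3RNAi. HttQ138 was 2.79-fold above w1118 (1.33 to 6.40), from an estimated 30 and 10 fragments, which falls short of the 3-fold used for a call. With 73 estimated fragments in Rpn3RNAi and a listed 0 in attP2, no fold is given for that comparison. The transcript is only 361 nucleotides long, and such short genes have the least certain fragment estimates.

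Its neighbour Peritrophin-15b (FBgn0040958) had far lower values. In the reference annotation no other protein-coding gene lies between the pair on arm 2L. Peritrophin-15b was listed at 0 in w1118, in the library labelled CncCRNAi and in attP2, and measured 5.12 FPKM with HttQ138, 1.62 with both transgenes and 1.99 with Rpn3RNAi. These values rest on an estimated 3, 1 and 1 fragments. Only the libraries with HttQ138 or Rpn3RNAi had any, but at so few fragments no order among the libraries can be read. Peritrophin-A was listed at 0 in 3 libraries and reached 0.909 FPKM in HttQ138.

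Mur29B and Mur18B, both mucin-related by name, were low in w1118 and high in HttQ138 and Rpn3RNAi. Mur29B (FBgn0051901) measured 1.13 FPKM in w1118 and 25.2 with HttQ138, 6.20 and 7.86 in the libraries labelled CncCRNAi and CncCRNAi+HttQ138, and 6.13 in attP2 beside 68.3 with Rpn3RNAi. HttQ138 was 22.3-fold above w1118 (10 to 61.8) and Rpn3RNAi 11.1-fold above attP2 (7.95 to 16.0), while the ratio between the libraries labelled CncCRNAi was 1.27 (0.811 to 1.99). The w1118 value rests on an estimated 6 fragments, and the other controls, attP2 and the library labelled CncCRNAi, were themselves 5.44-fold (2.28 to 15.7) and 5.50-fold (2.30 to 15.9) above it. Against attP2 in place of w1118, HttQ138 was 4.10-fold higher (2.85 to 6.03).

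Mur18B (FBgn0030999) measured 2.67 FPKM in w1118 and 36.2 with HttQ138, 1.19 and 0.375 in the libraries labelled CncCRNAi and CncCRNAi+HttQ138, and 15.7 in attP2 beside 58.4 with Rpn3RNAi. HttQ138 exceeded w1118 by 13.5-fold (5.97 to 37.9), and Rpn3RNAi exceeded attP2 by 3.71-fold (2.58 to 5.43). In the libraries labelled CncCRNAi only an estimated 3 fragments without HttQ138 and 1 with it were seen. attP2 was 5.88-fold above w1118 (2.48 to 16.9), and against attP2 the value of HttQ138 was 2.30-fold higher (1.57 to 3.43), under the fold used for a call. Its direct neighbour on the X chromosome, Muc18B, stayed at or below 0.778 FPKM, so that the members of this adjacent pair, like the Peritrophin-15 pair, had very unequal levels. The remaining Mur genes, Mur89F, Mur82C and Mur11Da, did not exceed 0.220 FPKM.

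Muc68D and Muc68E, mucins by name, were highest in Rpn3RNAi. Muc68D (FBgn0036203) measured 3.58 FPKM in w1118 and 6.75 with HttQ138, 0.500 and 0.353 in the libraries labelled CncCRNAi and CncCRNAi+HttQ138, and 7.24 in attP2 beside 117 with Rpn3RNAi. Rpn3RNAi was 16.1-fold above attP2 (13.4 to 19.6), from an estimated 1511 and 121 fragments, the most fragments behind any called member. HttQ138 was 1.89-fold above w1118 (1.34 to 2.69), but at 0.933 times attP2 (0.710 to 1.22). The library labelled CncCRNAi lay at 0.140 times w1118 (0.0573 to 0.297), the lowest ratio of that comparison among members with a value in both libraries.

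Muc68E (FBgn0053265) measured 0.684 FPKM in w1118 and 1.83 with HttQ138, 1.34 and 0.625 in the libraries labelled CncCRNAi and CncCRNAi+HttQ138, and 0.719 in attP2 beside 18.6 with Rpn3RNAi. The first 5 values did not exceed 1.83 FPKM, and Rpn3RNAi stood apart at 25.9-fold above attP2 (15.2 to 48.1). HttQ138 was 2.67-fold above w1118 (1.31 to 5.88) without reaching 10 FPKM. Muc68Ca, whose name places it in the same cytological region, stayed at or below 0.486 FPKM in all libraries, Rpn3RNAi included.

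Muc11A (FBgn0052656), another mucin by name, had its highest value in HttQ138. It measured 1.74 FPKM in w1118 and 26.1 with HttQ138, 0.548 and 0.344 in the libraries labelled CncCRNAi and CncCRNAi+HttQ138, and 3.24 in attP2 beside 6.24 with Rpn3RNAi. HttQ138 was 15.0-fold above w1118 (9.18 to 26.1) and 8.06-fold above attP2 (5.70 to 11.7). Rpn3RNAi was 1.93-fold above attP2 (1.25 to 3.01), so that this gene and Muc68D differed in which of the stressed libraries held the high value. The libraries labelled CncCRNAi held an estimated 6 fragments without HttQ138 and 4 with it.

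The other members above 1 FPKM gave less to count. Muc55B (FBgn0034294) stood between 0 and 0.848 FPKM in 5 libraries and at 4.24 in Rpn3RNAi, from an estimated 17 fragments against 1 in attP2 (21.8-fold, 3.42 to 912). Muc30E (FBgn0053300) lay between 0.248 FPKM in Rpn3RNAi and 1.11 in the library labelled CncCRNAi+HttQ138, and its interval included 1 in each comparison made. obst-E (FBgn0031737) was listed at 0 in w1118 and stood between 0.325 and 1.27 FPKM elsewhere, with at most 3 estimated fragments. The other 7 obst genes did not exceed 0.728 FPKM, so the obstructor family was at or near the detection limit of these libraries.

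A member was called higher or lower when it differed by at least 3-fold and reached 10 FPKM in the higher library, which are the study's thresholds. By this rule 3 of the 5 members that reached 10 FPKM in either library were called higher in HttQ138 than in w1118, Mur29B, Mur18B and Muc11A, and 0 lower. Of all 5563 genes that reached 10 FPKM in either of those libraries, 3.58% were called higher and 1.73% lower. Over the 11 members above 1 FPKM the median log2 ratio of FPKM + 1 was 0.76 with HttQ138, and 10 had a higher value. Over all 9530 genes above 1 FPKM in any library the median was -0.03 and 44.5% had a higher value. The members' median fell to 0.27 when the 14 members at or below 1 FPKM were included. A gene could pass the limit of 1 FPKM through the library where it is high, so these medians are descriptions and carry no weight as evidence. Fewer cells of a type and less RNA per cell cannot be told apart in such libraries, here or in the comparisons that follow.

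With Rpn3RNAi, 5 of 6 members at 10 FPKM were called higher than in attP2, namely Peritrophin-15a, Mur29B, Muc68E, Mur18B and Muc68D, and 0 lower. The background was 6.94% called higher and 1.86% lower among 5864 genes. The median log2 ratio of the 11 members was 1.83, and 9 had a higher value, beside a median of 0.00 and 47.3% over all genes. Over all 25 members above 0 the median was 0.29. Muc55B passed 1 FPKM in Rpn3RNAi alone, and Peritrophin-15b counts as higher on an estimated 1 fragment against 0. The 2 with a lower value in Rpn3RNAi were Mur2B and Muc30E. Set against w1118 in place of attP2, the same 5 genes were called. Peritrophin-15a then had a fold of 8.08 (4.15 to 17.5), since it was present in w1118.

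Between the libraries labelled CncCRNAi, 0 members were called with HttQ138 in either direction, and only Mur2B reached 10 FPKM in either library. The background there was 1.19% called higher and 1.35% lower among 5703 genes. With only Mur2B at 10 FPKM, the count of 0 is near that background and says little about the other members. Of the 11 members, 5 had a higher and 6 a lower value with HttQ138, and the median log2 ratio was -0.02, beside -0.12 over all genes. The rule needs 10 FPKM only in the higher library, so a low value in the control alone does not keep a member from being called. Mur29B, Mur18B and Muc11A were called in HttQ138 from 1.13, 2.67 and 1.74 FPKM in w1118. The 3 genes called with HttQ138 alone had ratios of 1.27 (Mur29B), 0.315 (Mur18B) and 0.628 (Muc11A) here, and no test was made of how the backgrounds differ. Already without HttQ138, the library labelled CncCRNAi held lower values than w1118 for Muc68D, Muc11A (0.315, 0.102 to 0.836) and Mur2B (0.687, 0.601 to 0.785), with intervals below 1, and a higher value for Mur29B.

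**Figure D2:**
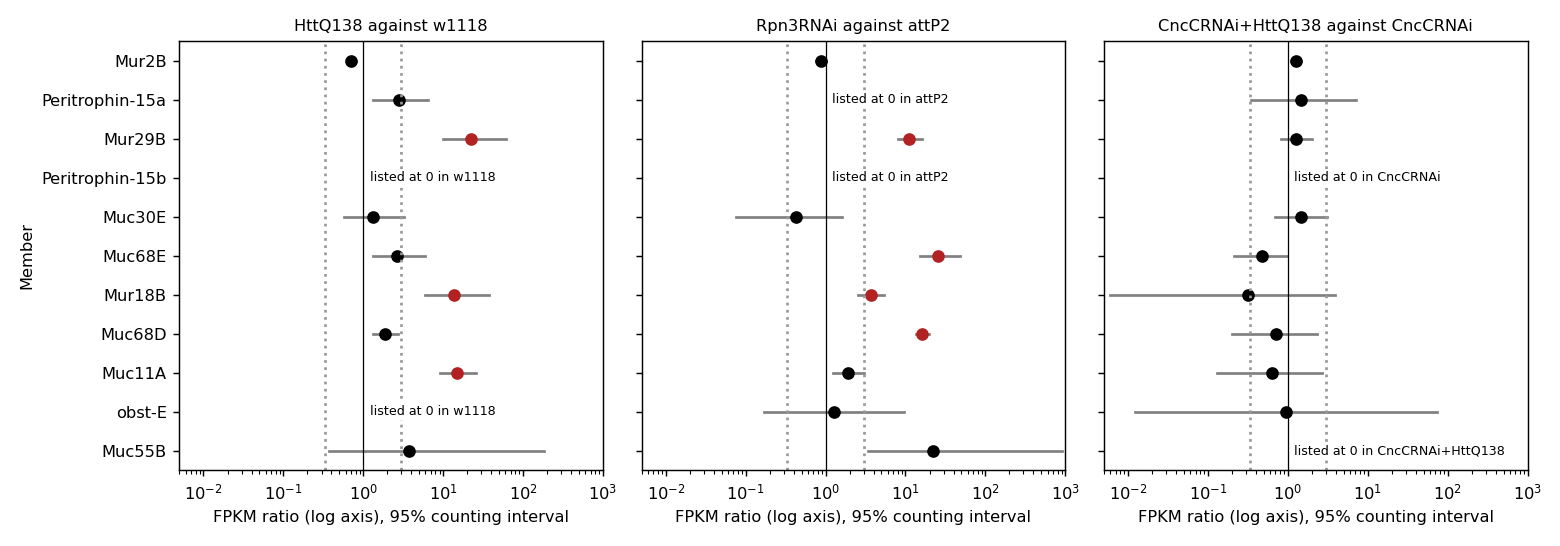
FPKM ratio of the 11 members above 1 FPKM in 3 comparisons on a log axis, with points for ratios, grey bars for 95% counting intervals, dotted lines at 3-fold and red for members called at 3-fold and 10 FPKM. The red points are Mur29B, Mur18B and Muc11A for HttQ138 and Mur29B, Muc68E, Mur18B and Muc68D for Rpn3RNAi, and members with a value of 0 carry a label in place of a point.

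The controls themselves were not alike for these genes. Between attP2 and w1118, which differ in genotype and in days at 29 °C, 1 of the 3 members at 10 FPKM was called higher in attP2, Mur18B, and 1 lower, Peritrophin-15a. The background of that comparison was 2.55% higher and 2.96% lower. Between the library labelled CncCRNAi and w1118, 0 of 2 members were called, beside 4.97% of genes called higher and 1.59% lower. HttQ138 against w1118 and the 2 control comparisons share the w1118 library, in which Mur29B, Mur18B and Muc11A had 6, 6 and 17 estimated fragments.

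**Figure D3:**
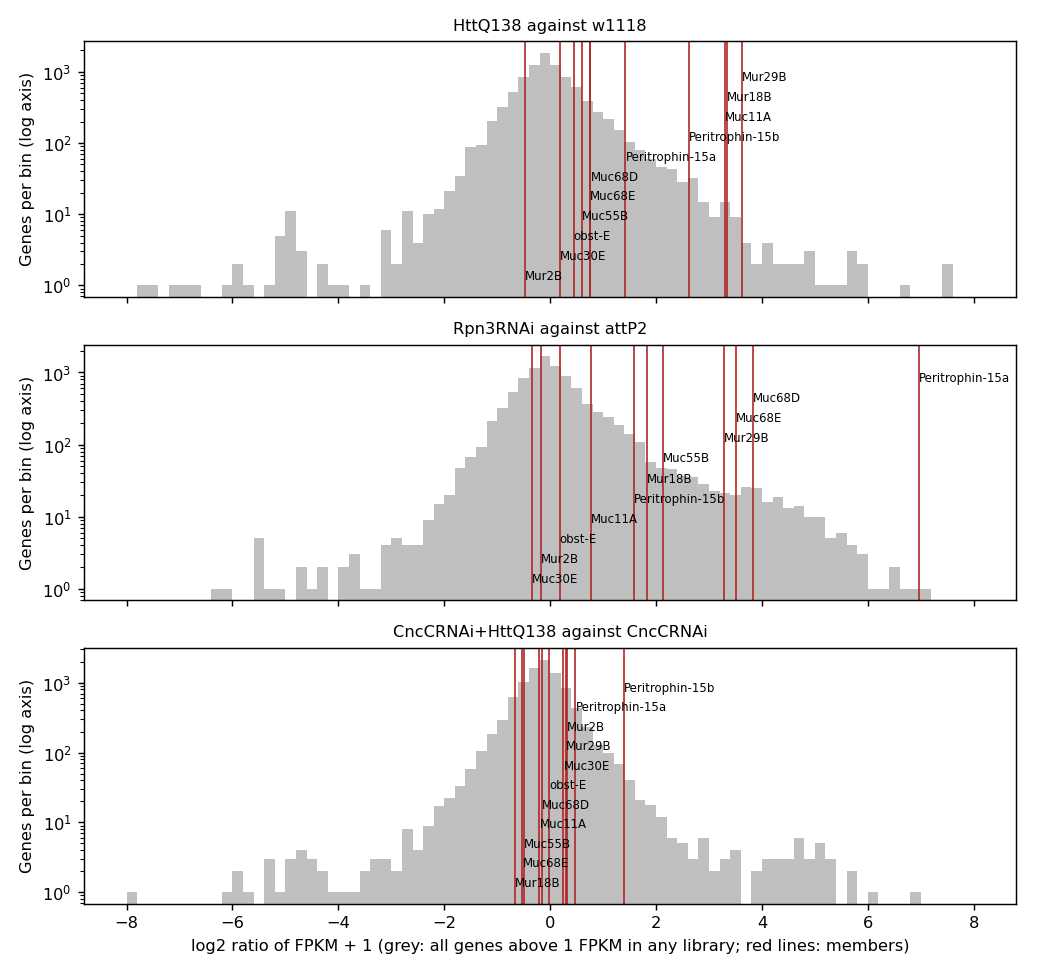
Distribution of the log2 ratio of FPKM + 1 over the 9530 genes above 1 FPKM in any library (grey bars, genes per bin on a log axis) in 3 comparisons, with the 11 members above 1 FPKM as red lines. The members have medians of 0.76 with HttQ138, 1.83 with Rpn3RNAi and -0.02 between the libraries labelled CncCRNAi, beside -0.03, 0.00 and -0.12 for all genes.

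Among genes that make the chitin of the matrix, few reached the level needed for a call. CS-2, the chitin synthase of the fly midgut, measured 74.2 FPKM in w1118 and 48.1 with HttQ138, 29.0 and 28.4 in the libraries labelled CncCRNAi and CncCRNAi+HttQ138, and 31.9 in attP2 beside 65.2 with Rpn3RNAi. It was highest in w1118 and lay above its control with Rpn3RNAi and below it with HttQ138, whereas kkv, the chitin synthase of cuticle and trachea, did not exceed 0.068 FPKM. Of 10 genes of chitin synthesis and supply matched in the files, 4 reached 10 FPKM in either library of each of these comparisons, and 0 of the 4 were called higher, beside the 3.58% and 6.94% over all genes, so that a count of 0 is near the background. Gfat2, an enzyme at the start of the hexosamine pathway, was called lower in Rpn3RNAi at 18.4 FPKM against 57.5 in attP2. Over all genes 1.86% were called lower in that comparison. The 6 genes above 1 FPKM had median log2 ratios of 0.39 with HttQ138 and -0.41 with Rpn3RNAi. nst, which acts later in the same pathway, was the second most abundant at 21.9 FPKM in w1118 beside 41.6 with HttQ138, and 39.5 in attP2 beside 30.1 with Rpn3RNAi.

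Genes of chitin remodelling included several with high values in Rpn3RNAi. Of 22 genes matched, 5 reached 10 FPKM in either attP2 or Rpn3RNAi and 4 of them were called higher in Rpn3RNAi. With HttQ138 1 of 2 was called higher. The shares called higher over all genes were 6.94% with Rpn3RNAi and 3.58% with HttQ138. Idgf4, a secreted chitinase-like protein, was called in both, at 1.64 FPKM in w1118 beside 12.1 with HttQ138, and 5.83 in attP2 beside 35.4 with Rpn3RNAi. Idgf6, listed as CG5210 and of the same family, measured 0.233, 8.54, 8.23 and 53.1 FPKM in that order. The chitinases Cht9 and Cht4 stood at 3.24 and 1.49 FPKM in attP2 and at 17.9 and 10.6 in Rpn3RNAi. Cht4 was also called higher in the library labelled CncCRNAi, at 11.0 FPKM against 0.493 in w1118. Cht2, another chitinase, was the most abundant of the list and was called in no comparison, at 22.0 to 46.9 FPKM. Between the libraries labelled CncCRNAi, 0 genes of this list were called, beside 1.19% called higher and 1.35% lower over all genes. The 14 above 1 FPKM had median log2 ratios of 0.41 with HttQ138, 1.48 with Rpn3RNAi and -0.22 between those libraries.

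Of 11 matched genes of mucin O-glycosylation and secretion, most of them enzymes that start O-linked sugar chains, 7 reached 10 FPKM in attP2 or Rpn3RNAi and 1 was called higher. With HttQ138 0 of 6 were called in either background. The background shares called higher were again 6.94% with Rpn3RNAi and 3.58% with HttQ138 over w1118, where 1.73% were lower. Between the libraries labelled CncCRNAi 1.19% were higher and 1.35% lower. The counts of 0 of 6 are near these shares. The called gene was pgant4, a transferase that fly larvae need in the cells secreting the peritrophic matrix, at 1.48 FPKM in attP2 and 15.0 in Rpn3RNAi, with 0.229 to 0.433 in the other 4 libraries. Tango1, a cargo receptor that loads large proteins for secretion, was the most abundant of the list at 24.8 FPKM in w1118 beside 33.2 with HttQ138, and 40.9 in attP2 beside 61.8 with Rpn3RNAi. pgant6 followed at 19.6, 28.8, 22.9 and 15.9 FPKM in the same order. Uncalled genes also differed, such as Pgant9, listed as CG30463, at 19.1 FPKM in attP2 beside 7.83 with Rpn3RNAi, and pgant2 at 0.262 beside 1.60, both chosen after their values were seen. The drosocrystallin gene Crys, listed as Cry, whose product is part of the adult matrix, was called higher with Rpn3RNAi, at 14.0 FPKM beside 0.649 in attP2. It measured 0.756 FPKM in w1118 beside 1.24 with HttQ138, and 6.24 and 0.796 in the libraries labelled CncCRNAi and CncCRNAi+HttQ138. Gasp, an obstructor family gene under another name, did not exceed 0.548 FPKM.

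**Figure D4:**
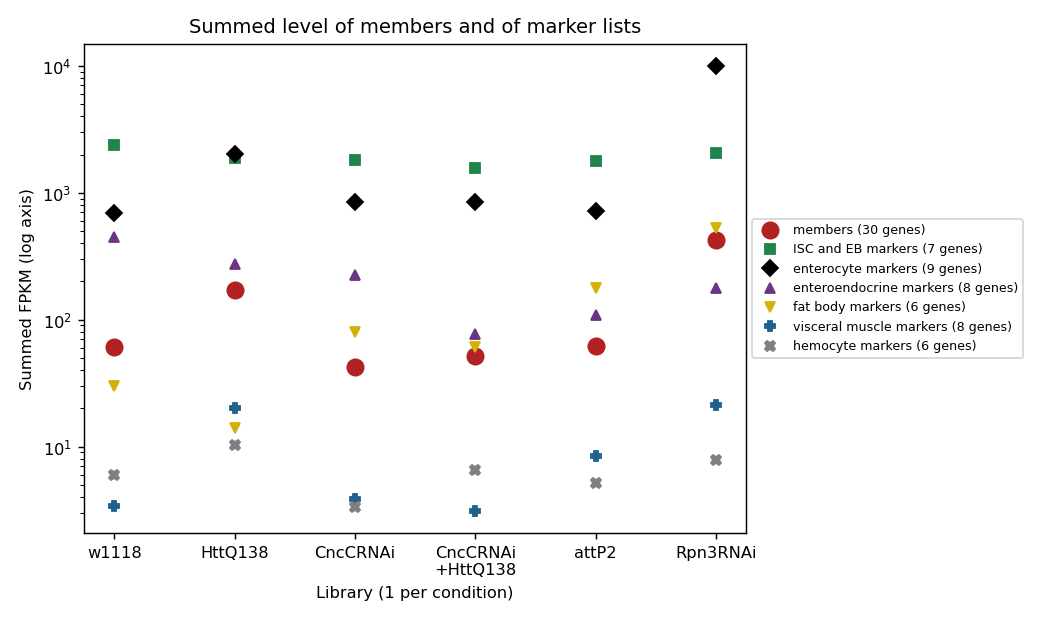
Summed FPKM of all 30 members and of 6 lists of cell type markers in each library, on a log axis, with 1 point for each list and library. The members sum to 60.9 FPKM in w1118 beside 172 with HttQ138 and to 61.6 in attP2 beside 425 with Rpn3RNAi, and the enterocyte markers to 694, 2004, 716 and 9927.

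Among markers of other cell types, genes of digestive enzymes made by enterocytes were called higher in HttQ138 and Rpn3RNAi. The 9 enterocyte markers, of which 0 were at 0 in any library, summed to 694 FPKM in w1118 and 2004 with HttQ138, 852 and 844 in the libraries labelled CncCRNAi and CncCRNAi+HttQ138, and 716 in attP2 beside 9927 with Rpn3RNAi. All 30 members summed to 60.9, 172, 42.7, 51.8, 61.6 and 425 FPKM in the same order. With HttQ138 3 of 8 enterocyte markers at 10 FPKM were called higher, beside 3.58% of all genes. With Rpn3RNAi 5 of 8 were, beside 6.94%. All the called markers were digestive enzymes, alphaTry, Jon65Aiv and Mal-A1 in both comparisons and betaTry and Amy-p with Rpn3RNAi. The structural and regulatory enterocyte genes Myo31DF, mex1, GATAe and nub were called in neither, and their values went both ways. With HttQ138, Myo31DF measured 153 FPKM beside 161 in w1118, GATAe 65.6 beside 91.4, mex1 117 beside 51.6 and nub 3.81 beside 1.47. With Rpn3RNAi, Myo31DF measured 135 FPKM beside 182 in attP2, GATAe 58.1 beside 92.6, mex1 111 beside 109 and nub 6.29 beside 4.47. Between the libraries labelled CncCRNAi, 1 marker, Mal-A1, was called lower with HttQ138 and 0 higher, beside 1.35% and 1.19% over all genes. Mal-A1 also differed between controls, at 2.73 FPKM in w1118, 43.5 in attP2 and 65.1 in the library labelled CncCRNAi. It was called higher in both than in w1118, beside 2.55% and 4.97% of all genes. Its value of 22.7 with HttQ138 lay above w1118 but below those other controls.

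The 7 ISC and EB markers summed to between 1552 and 2382 FPKM and had 0 members called with HttQ138 or Rpn3RNAi. Between controls, upd3 of this list was called higher in attP2 (51.3 FPKM) and in the library labelled CncCRNAi (111) than in w1118 (16.8). The 8 visceral muscle markers summed to 3.40 FPKM in w1118 beside 20.2 with HttQ138, and 8.48 in attP2 beside 21.3 with Rpn3RNAi. No marker of this list reached 10 FPKM in any library, so none could be called. The 8 enteroendocrine markers summed to 446, 276, 108 and 177 FPKM in that order, highest in w1118. Of these, Ast-C and CCHa2 were called higher with HttQ138, while the most abundant, npf, measured 167 FPKM beside 396 in w1118 and Tk 14.8 beside 25.2. npf and Tk were called lower with HttQ138 between the libraries labelled CncCRNAi, and lower in attP2 than in w1118. The fat body list summed to 29.9, 14.1, 179 and 526 FPKM, mostly from the yolk protein genes Yp1, Yp2 and Yp3, of which Yp3 was called higher with Rpn3RNAi and all 3 in attP2 over w1118. Hemocyte markers summed to at most 10.3 FPKM, and those of trachea, hindgut and foregut, and ovary to at most 19.3, 7.33 and 1.48. Over all genes, 3.58% were called higher with HttQ138 and 6.94% with Rpn3RNAi, and 1.35% lower between the libraries labelled CncCRNAi. In attP2 against w1118, 2.55% were called higher and 2.96% lower, and 4.97% were higher in the library labelled CncCRNAi than in w1118. The part of other cell types in the members' values was not tested.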

How the data were processed

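RNA of sorted escargot-positive cells was sequenced by the authors as 150 bp paired-end MiSeq reads, 1 library per condition. They mapped the reads to the Drosophila genome (release given as 5.75) with a Tuxedo suite pipeline and deposited FPKM per gene. Tool versions are not given in the sources used here. The FPKM values summed to between 639046 and 797524 per library and were used as deposited. Paralogs and repeat-rich mucins may share reads in a way FPKM values do not show.

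The members and lists were chosen with earlier results of these data known. A member was called at 3-fold and 10 FPKM in the higher library. Members reaching 10 FPKM were named with all values, those above 1 FPKM with ranges, and from each list the 2 most abundant genes and those called. Log2 ratios used FPKM + 1. Names of all 30 members matched the release 6 reference (annotation 115), from which gene lengths and gene order were taken, and no coordinates.

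Low FPKM values fall on steps of 1 fragment. The steps, fitted on 110 single-transcript genes with the length reduced by 148 nucleotides, gave the fragments per library and per member. The step seen for a gene was used where one was found and was above 0.9 times that computed from its shortest transcript, and otherwise the computed step. For Mur18B and Muc11A the step seen was 2.001 and 1.475 times the computed one. With the computed step their estimated fragments would be more and their intervals narrower. At this depth 1 fragment per kilobase of gene equals 0.275 to 0.362 FPKM. Intervals on ratios are exact (Clopper-Pearson) 95% binomial intervals. Calls and intervals were tested on simulated data with known fragments and a single gene length. Intervals were scored there only on well-expressed genes, so the test does not cover intervals on few or estimated fragments. Python 3.11.15, pandas 2.3.3, scipy 1.17.1 and numpy 2.4.6 were used.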

Additional observations from a re-analysis of the deposited data

Results flagged for a closer look

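With HttQ138, the ratios of Mur18B and Muc11A lay on opposite sides of 1 in the 2 backgrounds. Mur18B was 13.5-fold higher in HttQ138 than in w1118 but 0.315 times its control in the library labelled CncCRNAi+HttQ138 (95% counting interval 0.00600 to 3.92). Muc11A was 15.0-fold higher in HttQ138 and 0.628 times its control in the library labelled CncCRNAi+HttQ138 (0.130 to 2.65). Both intervals in the second background include 1, so no direction can be read there. The fragments behind them were an estimated 1 against 3 for Mur18B and 4 against 6 for Muc11A. Each ratio rests on 1 library per condition, and whether the backgrounds differ was not tested.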

How the results depend on the processing

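With 2-fold in place of 3-fold, a minimum of 5 FPKM in place of 10, libraries scaled to their median ratio, or the other control, the counts of members called stayed within 1.5 times those reported in all 3 comparisons. With attP2 in place of w1118 the 3 genes called for HttQ138 were Peritrophin-15a, Mur29B and Muc11A, without Mur18B. Scaling shifted all log2 ratios by 0.09 for HttQ138, 0.17 for Rpn3RNAi and 0.09 between the libraries labelled CncCRNAi. The median log2 ratio of members with HttQ138 was 1.54 with a pseudocount of 0.1 and 1.42 over the 7 members at 10 FPKM, and 0.27 over all 25 members above 0, beside 0.76. With Rpn3RNAi it was 3.46 and 3.28 in the same order, and 0.29 over the 25 members above 0, beside 1.83. These 25 include 14 at or below 1 FPKM. Of 63 single-gene log2 ratios under other scaling, pseudocount or control, 14 moved, 12 of them with the other control. A ratio counted as moved beyond its counting error, or beyond 1.5-fold where a listed 0 left no interval. Of the called values 0 changed sign. No paired analysis was possible because each condition has 1 library. With 1 library per condition, library and genotype cannot be told apart. Low values often rest on few fragments, and so can higher values of short genes. Peritrophin-15b at 5.12 FPKM in HttQ138 rested on an estimated 3 fragments, and Muc68E at 0.684 FPKM in w1118 on 11.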
